A study of Mus musculus with 24 samples.

Results

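The genes described here are 9 genes of the expanding cumulus matrix and of the epidermal growth factor (EGF)-like signal of ovulation, taken by gene symbol: Has2, Tnfaip6, Ptx3, Vcan and Cd44 for the matrix, and Areg, Ereg, Btc and Egfr for the EGF-like pathway. Of the 9, 8 had at least 1 probe set annotated to them alone, 17 probe sets in all among 22626 tested, and 12393 genes were measured in the same way over the whole array. Each probe set is a set of short oligonucleotide probes that reads 1 stretch of a transcript. No probe set was named Areg in the platform annotation used here, and Areg was not analysed.

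Ovaries of 2 mouse lines were compared at metestrus, the stage of the estrous cycle that follows ovulation. FL1 is a high-fertility line which had been selected over 130 generations on an index of litter size and litter weight at the first birth. DUKsi served as the unselected control, and it is inbred after about 36 generations of brother-sister matings. Both lines go back to 1 population bred from 4 inbred and 4 outbred lines, and no introduced allele or treatment is named for either. The animals were virgin females of 6 to 9 weeks, and the ovaries were taken 2 to 3 h after staging by vaginal smear. RNA of 30 animals per line was combined to 6 pools, with 5 animals per pool by the methods and 6 by the sample labels, and each pool was hybridized to 2 arrays. The replicate in all comparisons was the pool. Each state is represented by 1 line, so that selection and inbreeding cannot be told apart, and whole ovaries were used without isolation of cumulus cells.

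After the surge of luteinizing hormone, mural granulosa cells release EGF-like ligands, which bind the EGF receptor on cumulus cells. The cumulus cells then synthesize a hyaluronan-rich matrix, and the cumulus-oocyte complex expands and leaves the follicle. Proteins that link, organize or bind hyaluronan hold this matrix together, and in mice the loss of several of them impairs fertility. At metestrus the ovulated complexes have left the ovary, and the ovary holds forming corpora lutea beside growing follicles.

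Promoter stretches of 4 members are shown to place the genes in the genome and to show sequence that the choice of genes did not use. They are taken from RefSeq on GRCm38.p6, where 7 of the 9 genes had an entry of 250 bases before to 50 bases after the gene start, and Has2 and Ereg had none. Each stretch is written 5′ to 3′ on the strand of the gene, and the capitals mark the match to a motif. In Areg (amphiregulin, chr5:91139508-91139575, plus strand) the capitals are the cAMP response element TGACGTCA. In Tnfaip6 (chr2:52037941-52038007, plus strand) they are the AP-1 motif TGANTCA. In Btc (chr5:91403073-91403137, minus strand) they are the element core TGACG, and in Egfr (chr11:16752164-16752229, plus strand) the GC box GGGCGG, both read on the opposite strand.
Areg: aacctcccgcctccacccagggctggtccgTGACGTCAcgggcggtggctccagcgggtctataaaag
Tnfaip6: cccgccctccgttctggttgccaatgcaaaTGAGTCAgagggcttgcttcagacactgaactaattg
Btc: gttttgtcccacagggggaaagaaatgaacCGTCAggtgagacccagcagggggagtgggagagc
Egfr: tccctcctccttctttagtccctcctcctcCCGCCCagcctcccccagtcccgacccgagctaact

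The motifs start 61 bases before the gene start in Areg, 142 in Tnfaip6, 113 in Btc and 9 in Egfr. In all, 8 motifs were searched on both strands of the 7 promoters. The full element TGACGTCA was found in 1 of them, Areg, and in 1.79% of all 32851 promoters of the same length. Its core TGACG, which is part of the full element, was found in Areg and Btc and in 20.8% of all promoters. The AP-1 motif TGANTCA stood in the Tnfaip6 promoter and in 7.81% of all. The GC box GGGCGG was the most widespread motif among the members, in 5 of 7 (Tnfaip6, Cd44, Areg, Egfr and Vcan) against 35.7% of all promoters. TATAAA was found in 1 member promoter (13.6% of all), CCAAT in 2 (37.4%), AGGTCA in 1 (16.3%) and GCGGGGGCG in 0 (2.91%). None of the 8 motifs was common to the promoters of Tnfaip6, Btc and Egfr, which belong to the correlated group described below. Of these motifs, Btc held only the core TGACG and Egfr only the GC box. Little overlap was thus possible, and nothing on shared regulation follows.

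No member passed the test for a difference between the lines. With limma, 0 of the 17 probe sets had an adjusted p under 0.01, whereas 3.38% of all probe sets did (764 of 22626, 1.83% higher and 1.55% lower in FL1), and 0 passed together with a ratio of means of at least 1.5 (2.32% of all). At an adjusted p under 0.05 the members also numbered 0 (6.91% of all), and at an unadjusted p under 0.05 they numbered 3 (19.8% of all). By the methods' t-test on linear signals 2 of the 17 had an unadjusted p under 0.05 (19.2% of all) and 0 an adjusted p under 0.01 (2.24% of all). The ratio of the lines' means was under 1.5 in every member probe set (8.57% of all reached it), and in each of them the pools of the lines overlapped (4.62% of all did not). On the log2 scale 5 probe sets were higher and 12 lower in FL1, with a median difference of -0.05 over the members and -0.07 over all probe sets. The adjusted p ranged from 0.142 to 0.9746. In 13 of 17 probe sets the 95% interval of the fold change lay within 1.5-fold in either direction, and in the other 4 it reached it. One of the 13, Btc 1421161_at, rests on signals in the lowest part of the range, which do not bound a change in the transcript. In whole ovaries, fewer cells of a type and less RNA per cell cannot be told apart.

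**Figure D1:**
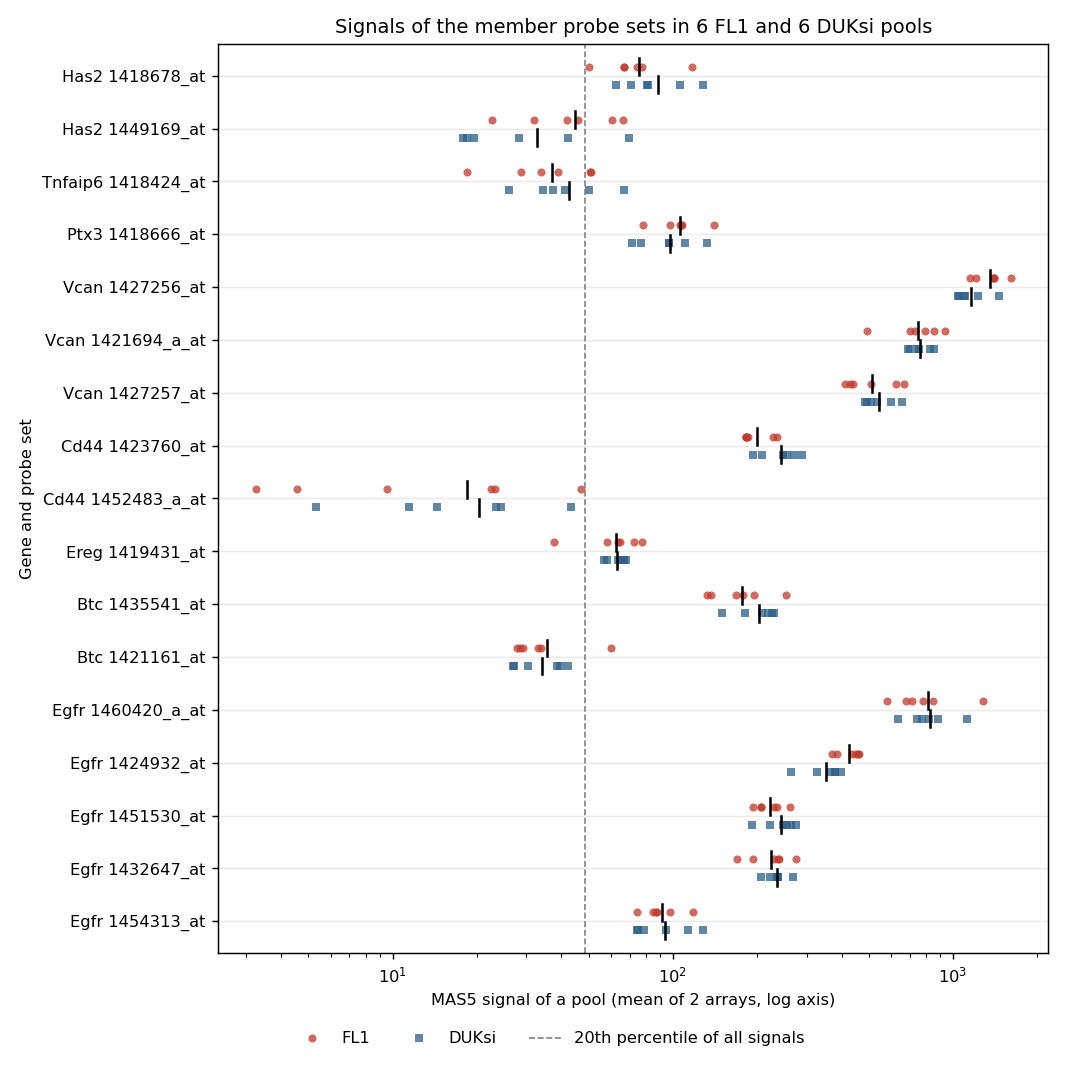
Signals of the 17 member probe sets, 1 row per probe set, on a log axis of the MAS5 signal of a pool (mean of 2 arrays). Red circles are the 6 FL1 pools, blue squares the 6 DUKsi pools and black bars the mean of a line. The dashed line is the 20th percentile of all signals (48.6). The pools of the lines overlap in every row.

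The hyaluronan synthase gene Has2, whose enzyme makes the backbone of the matrix, gave a low signal in both lines. Its probe set 1418678_at measured 50.2 at the lowest, 70.7 at the median and 117 at the highest in FL1, and 62.6, 81.1 and 128 in DUKsi. FL1 pool 3 and DUKsi pool 5 were the highest of their lines, and the ranges overlapped over most of their width. The means were 75.5 ± 22.5 in FL1 and 88.4 ± 24.5 in DUKsi (SD over 6 pools), a log2 difference of -0.23 (SE 0.228, adjusted p = 0.622). The interval of the fold change, 0.608 to 1.19, reached 1.5-fold. The other Has2 probe set, 1449169_at, ran from 22.6 to 66.2 in FL1 and from 17.8 to 69.6 in DUKsi, with 9 of the 12 pools under 48.6, the 20th percentile of all signals. Its mean was higher in FL1 by 0.57 on the log2 scale (SE 0.370, adjusted p = 0.434), and the SD between the 2 arrays of a pool was 1.39, more than the SD of 0.69 between the pools of a line. The 2 probe sets thus pointed in opposite directions, with a difference of -0.80 between their log2 fold changes (exact permutation p = 0.119). The array SD is that of single arrays, and the pool SD that of means of 2 arrays. The array SD was also larger in the brightest probe sets of Has2 (0.51 and 0.39) and Tnfaip6 (0.88 and 0.51). So it was in those of Ptx3 (0.37 and 0.30), Cd44 (0.22 and 0.20) and Ereg, but not of Vcan, Btc and Egfr.

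Tnfaip6 encodes the protein that transfers heavy chains of the inter-alpha-inhibitor to hyaluronan. Its 1 probe set, 1418424_at, had a lowest, median and highest signal of 18.4, 36.5 and 50.8 in FL1 and of 26, 39.3 and 66.8 in DUKsi. In 8 of the 12 pools the signal was under 48.6, so that most pools of both lines lay in the lowest part of the array's range. The log2 fold change was -0.23 (SE 0.297, adjusted p = 0.724) from means of 36.9 ± 12.7 and 42.6 ± 14.3 (SD over 6 pools). The interval of the fold change, 0.552 to 1.33, was among those that reached 1.5-fold.

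Ptx3 encodes pentraxin 3, which binds the heavy chains and cross-links the hyaluronan strands. The signals of 1418666_at were 78.5, 107 and 140.2 in FL1 and 71.5, 96.8 and 132 in DUKsi (lowest, median and highest), and both lines covered nearly the same range. The mean was 106 ± 20.05 in FL1 and 97.5 ± 22.3 in DUKsi (SD over 6 pools), with a log2 difference of 0.13 (SE 0.188, adjusted p = 0.746). No pool was under 48.6, and the interval of the fold change was 0.831 to 1.45.

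Versican, the large hyaluronan-binding proteoglycan encoded by Vcan, was measured by 3 probe sets. The brightest, 1427256_at, gave 1147, 1393 and 1606 in FL1 and 1045, 1098 and 1463 in DUKsi (lowest, median and highest). Of the FL1 pools 4 measured 1386 or more, and of the DUKsi pools 1, pool 3, did so. The mean of 1358 ± 164 in FL1 and 1164 ± 161 in DUKsi (SD over 6 pools) corresponded to a fold change of 1.17 with an interval of 1.01 to 1.35 (unadjusted p = 0.0347, adjusted p = 0.207, limma). The other probe sets were slightly lower in FL1 and did not pass. Signals of 1421694_a_at ran from 494 to 938 in FL1 and from 691 to 853 in DUKsi (log2 fold change -0.04, adjusted p = 0.884), and those of 1427257_at from 410 to 668 and from 483 to 655 (log2 fold change -0.11, adjusted p = 0.699). The annotation assigned 1427256_at and 1427257_at to the same sequence record, yet their log2 fold changes differed by 0.33 (exact permutation p = 0.0325, adjusted p = 0.130 over 16 pairs of probe sets).

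Cd44, the cell-surface receptor for hyaluronan, had its main signal in 1423760_at. The FL1 pools measured 182 at the lowest, 184 at the median and 235.5 at the highest, and the DUKsi pools 193, 251 and 289.5. In FL1 4 pools were within 182 to 185 and 2 reached 228 and 235.5, whereas 4 DUKsi pools measured 247 or more. The mean was 199 ± 25.3 in FL1 and 244 ± 37.0 in DUKsi (SD over 6 pools), a fold change of 0.821 with an interval of 0.679 to 0.992 (unadjusted p = 0.0422, adjusted p = 0.231, limma). The other probe set, 1452483_a_at, was under 48.6 in all 12 pools, from 3.25 to 47.0, and its interval of 0.288 to 1.89 excluded little.

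**Figure D2:**
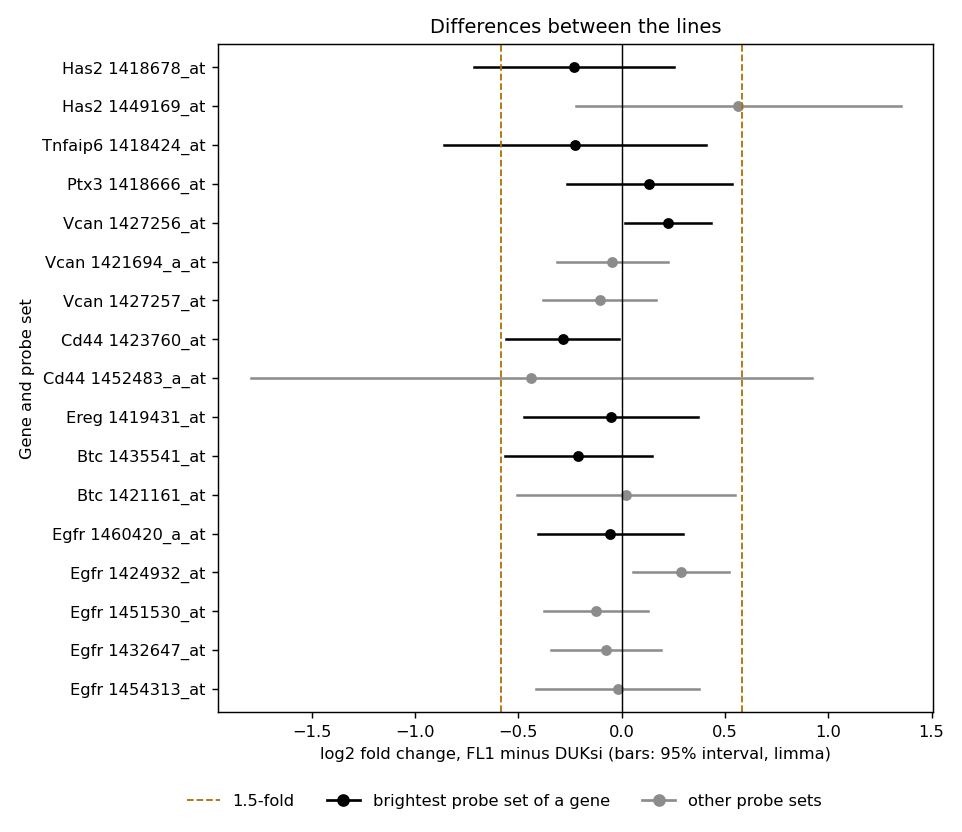
Log2 fold change of FL1 over DUKsi for the 17 member probe sets, with the 95% interval from limma as a bar. Black marks the brightest probe set of a gene, grey the others, and the dashed lines are 1.5-fold. In 13 rows the interval lies inside the dashed lines, and the widest belongs to Cd44 1452483_a_at.

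Of the EGF-like ligands, epiregulin (Ereg) and betacellulin (Btc) were measured. The Ereg signals of 1419431_at were 37.8, 64.2 and 77.8 in FL1 and 56.6, 64.8 and 68.2 in DUKsi (lowest, median and highest). The medians were nearly equal, and the SD between the 2 arrays of a pool (0.55 on the log2 scale) was larger than that between the pools of a line (0.27). The log2 fold change was -0.05 (SE 0.198, adjusted p = 0.920), and the interval of 0.722 to 1.29 lay within 1.5-fold. FL1 pool 1 was the lowest of the 12 pools and the only 1 under 48.6. The other signals lay little above that value, so that the interval bounds the transcript less firmly than the signal. Ereg, Epgn (epigen, another ligand of the receptor) and Btc neighbour Areg on chromosome 5, and none of these 3 passed the test.

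Btc, a ligand that binds the EGF receptor and ErbB4, had a lowest, median and highest signal of 132, 172 and 254 in FL1 and of 150, 213 and 229 in DUKsi with 1435541_at. Most DUKsi pools were above the FL1 median, but FL1 pool 3 was the highest of all. The mean of 177 ± 44.7 in FL1 and 202 ± 30.9 in DUKsi (SD over 6 pools) gave a log2 difference of -0.21 (SE 0.168, adjusted p = 0.530). Its other probe set, 1421161_at, was under 48.6 in 11 of 12 pools, and FL1 pool 3 was the exception at 60.3. There the log2 fold change was 0.02 (SE 0.248, adjusted p = 0.9746).

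The receptor gene Egfr had 5 probe sets. The brightest, 1460420_a_at, gave 579, 748 and 1276 in FL1 and 634, 799 and 1122 in DUKsi (lowest, median and highest), with FL1 pool 3 and DUKsi pool 5 far above the rest of their lines. The means of 812 ± 245 and 829 ± 166 (SD over 6 pools) differed by a log2 difference of -0.05 (SE 0.166, adjusted p = 0.893). The lowest adjusted p of all member probe sets was that of Egfr 1424932_at. It measured 370.5, 442 and 462 in FL1 and 264, 371 and 399.6 in DUKsi, and 4 FL1 pools were above each DUKsi pool. The fold change was 1.22 with an interval of 1.04 to 1.43 (unadjusted p = 0.0179, adjusted p = 0.142, limma).

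The remaining Egfr probe sets were slightly lower in FL1. Log2 fold changes were -0.12 for 1451530_at (adjusted p = 0.610), -0.08 for 1432647_at (adjusted p = 0.784) and -0.02 for 1454313_at (adjusted p = 0.969). The first of these carries the same sequence record as 1424932_at. Nevertheless, their log2 fold changes were 0.41 apart (exact permutation p = 0.00433, adjusted p = 0.0693), the lowest p of the 16 pairs of probe sets of 1 gene. None of the 16 pairs passed an adjusted p of 0.05, and this comparison was chosen after the values were seen. Probe sets of 1 gene share the RNA and are not independent measures.

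Apart from the lines, the pool means of some members were correlated. For this, the line mean was subtracted from the log2 signal of each gene's brightest probe set, and 28 pairs of the 8 genes were correlated over the 12 pools. By Pearson's r and by Spearman's rho 5 pairs passed an adjusted p of 0.05, and these joined Has2, Tnfaip6, Btc and Egfr. The share of such pairs among other genes was not determined, so that the number cannot be read as particular to the members. The closest pair was Has2 and Egfr (r = 0.90, adjusted permutation p = 0.0042, rho = 0.82, adjusted permutation p = 0.0237). Btc and Egfr followed with r = 0.83 and rho = 0.83 (adjusted permutation p = 0.00882 and 0.0237), and Has2 and Tnfaip6 with r = 0.80 and rho = 0.79 (0.0165 and 0.0237). The correlation of Has2 with Btc and that of Tnfaip6 with Egfr were both 0.77, each with an adjusted permutation p of 0.0185, and rho was 0.78 in both. After omission of the 2 pools farthest from the median of the first gene, r of the 5 pairs was 0.716, 0.649, 0.679, 0.617 and 0.621 in the same order. Tnfaip6 and Btc, the remaining pair among the 4 genes, did not pass (r = 0.55, adjusted permutation p = 0.201).

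FL1 pool 3 and DUKsi pool 5 were high, and FL1 pool 2 low, in Has2, Tnfaip6 and Egfr. Vcan ran against this group, with the lowest r of all pairs between Vcan and Btc (r = -0.63, adjusted permutation p = 0.132), and it did not pass with any gene. Altogether 18 of the 28 correlations were positive. The number of pairs that passed fell to 2 without FL1 pool 2, to 3 without FL1 pool 3 and to 3 without DUKsi pool 5.

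**Figure D3:**
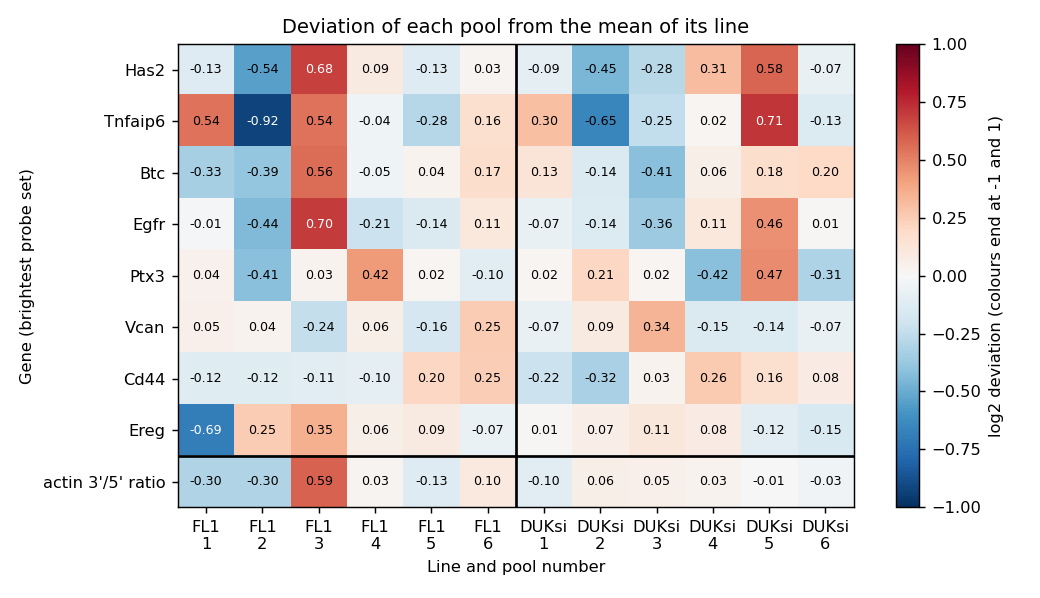
Deviation of each pool from the mean of its line, as log2 of the signal of each gene's brightest probe set, with the pools in columns and the genes in rows. The lowest row is the 3′ to 5′ ratio of beta-actin. FL1 pool 3 and DUKsi pool 5 deviate upwards in Has2 (0.68 and 0.58), Tnfaip6 (0.54 and 0.71) and Egfr (0.70 and 0.46), and FL1 pool 2 deviates downwards in each.

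The 2 arrays of a pool allowed a check on how much of this variation recurred. Within lines the first and the second array agreed for Vcan (r = 0.81, rho = 0.89, adjusted permutation p = 0.00224), the 1 gene of 8 that passed. For Egfr r was 0.61 (rho = 0.55, adjusted permutation p = 0.134), for Btc 0.49 and for Cd44 0.45, and for Has2, Tnfaip6 and Ptx3 it was 0.19, 0.15 and 0.10. In Ereg r was -0.44, and the adjusted permutation p of these 7 genes was 0.134 to 0.767. When the first array of 1 gene was set against the second array of the other, Has2 and Egfr correlated at 0.52 in both directions (adjusted permutation p = 0.509 and 0.605). Btc and Egfr correlated at 0.74 and 0.47 (adjusted permutation p = 0.133 and 0.605), and 0 of the 28 pairs passed in either direction. The other 3 pairs were lower than on pool means, with r = 0.10 and 0.44 for Has2 and Tnfaip6, 0.10 and 0.38 for Has2 and Btc, and 0.36 and 0.42 for Tnfaip6 and Egfr. In the difference between the 2 arrays of a pool no pair passed. There r was highest for Cd44 and Ereg (r = 0.69, rho = 0.55, adjusted permutation p = 0.327). Has2 and Btc followed (r = 0.63, rho = 0.78, adjusted permutation p = 0.435). The joint variation of the members was measured on pool means, and across arrays of the same pools it did not pass the test. This check was added after the values were seen.

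Of 2 control ratios for RNA integrity, that of beta-actin differed between the lines and that of Gapdh did not. Both were highest in FL1 pool 3. The beta-actin control probe sets at the 3′ and the 5′ end of the transcript gave a ratio, which increases as RNA is degraded, of 1.67 ± 0.423 in the FL1 pools and 1.27 ± 0.0522 in the DUKsi pools (SD over 6 pools; two-sided exact permutation p = 0.00216, the smallest that 6 against 6 pools can give). The FL1 pools ranged from 1.32 to 2.45, with pool 3 highest, and the DUKsi pools from 1.18 to 1.32. The ratio of Gapdh was 1.53 ± 0.420 and 1.28 ± 0.146 (exact permutation p = 0.203). Within lines, 0 of the 17 member probe sets passed an adjusted p of 0.05 against the actin ratio, and 6 had an unadjusted p under 0.05, each with an adjusted permutation p of 0.0620. The strongest r was -0.82 for Vcan 1421694_a_at, which had rho = -0.35 and r = -0.19 without FL1 pools 2 and 3. Positive values were found for Btc 1435541_at (r = 0.71, rho = 0.34), Btc 1421161_at (0.70, 0.37), Egfr 1460420_a_at (0.68, 0.43), Egfr 1432647_at (0.67, 0.56) and Has2 1418678_at (0.65, 0.44). Without these pools their r was 0.25, 0.35, -0.0047, 0.13 and 0.11, so that the relations rested on them. With the actin ratio as a covariate 0 member probe sets passed, and its part in the members' values was not otherwise tested.

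The other genes of the pathway were followed in 5 lists with 88 measured genes, of which 3 rose and 2 fell in FL1, against 2.08% and 1.65% of all 12393 genes (3.74% in both directions together). Among genes of hyaluronan synthesis, turnover and binding 0 of 26 measured genes passed (median log2 fold change 0.02, -0.05 over all genes), with 5 at an unadjusted p under 0.05. The sign of this median was not stable, with 0.11 without DUKsi pool 5 and -0.10 with the actin ratio as a covariate. The brightest were Itih5, related to the heavy chains of the inter-alpha-inhibitor, with 7532 ± 403 in FL1 and 6509 ± 571 in DUKsi (SD over 6 pools; log2 fold change 0.21, adjusted p = 0.0701), and the proteoglycan Dcn (log2 fold change -0.32, adjusted p = 0.0441). Of the other ErbB ligands and receptors 0 of 9 passed, and also 0 at an unadjusted p under 0.05 (median -0.06, -0.26 without DUKsi pool 1 and -0.22 with the actin covariate). Tgfa, the gene of transforming growth factor alpha, had a log2 difference of 0.22 (adjusted p = 0.285), and Erbb2, the co-receptor of the family, -0.20 (adjusted p = 0.314).

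Dusp6, whose phosphatase inactivates the kinase ERK downstream of the EGF receptor, rose in FL1. It was the 1 gene of 20 in the list of ligand shedding and receptor signalling that passed (median -0.01). Its signals were 497, 593 and 795 in FL1 and 292, 361 and 423 in DUKsi (lowest, median and highest), and the lines did not overlap. The means of 609 ± 104 and 356 ± 50.3 (SD over 6 pools) gave a log2 difference of 0.77 (SE 0.121, adjusted p = 0.00076, limma). On the second arrays alone its adjusted p was 0.0529, and by the methods' t-test on linear signals 0.0126.

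Timp1, an inhibitor of metalloproteinases, rose in FL1 as the 1 gene of 10 among the proteases and inhibitors of the matrix (median 0.01). It measured 705, 966 and 1577 in FL1 and 545.5, 646 and 682 in DUKsi, again without overlap (log2 fold change 0.66, SE 0.141, adjusted p = 0.00839, limma). This call was narrow. It was lost when any DUKsi pool or FL1 pool 1, 3, 4 or 6 was left out, with an adjusted p of up to 0.0245, with the actin covariate (0.0122) and by the methods' t-test on linear signals (0.0958). The 4 measured Adamts proteases of the list, which cleave versican, did not pass, with log2 differences of 0.34 for Adamts1 (adjusted p = 0.0434), 0.54 for Adamts5 (0.0419), -0.18 for Adamts4 (0.492) and 0.08 for Adamts15 (0.806). They were singled out after their values were seen.

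**Figure D4:**
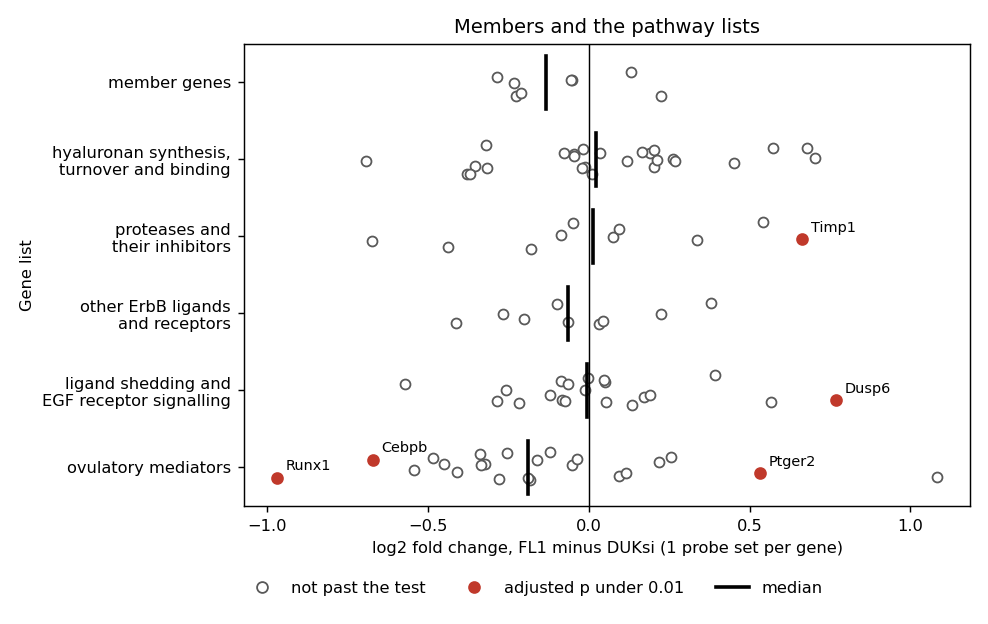
Log2 fold change of FL1 over DUKsi for the 8 measured members and the genes of 5 pathway lists, 1 probe set per gene. Open circles did not pass an adjusted p of 0.01, filled red circles did and are named, and black bars are the medians of the lists. The members hold no filled circle, and the 5 filled ones are Timp1, Dusp6, Ptger2, Runx1 and Cebpb.

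Among 23 measured ovulatory mediators, 1 rose and 2 fell in FL1 (median -0.19). The largest log2 difference was that of Edn2, 1.08, which did not pass (adjusted p = 0.0216, limma). Its signals were 138 to 548 in FL1 and 79 to 127 in DUKsi, without overlap. Edn2 was singled out after its values were seen. The receptor gene Ptger2, through which prostaglandin E2 acts on cumulus cells, rose from 344 ± 43.8 in DUKsi to 495 ± 41.4 in FL1 (SD over 6 pools), a log2 difference of 0.53 (SE 0.101, adjusted p = 0.00349, limma). The call was lost with the first or the second array alone (adjusted p = 0.0255 and 0.0213), without FL1 pool 4 or FL1 pool 6 (0.0114 and 0.0117), and with the actin covariate (0.0181). The transcription factor gene Runx1 fell, from 398 ± 58.4 to 205 ± 40.4 (log2 fold change -0.97, SE 0.143, adjusted p = 0.000444, limma). A further Runx1 probe set passed at -0.71 and the other 3 were at -0.33, -0.18 and -0.03. Runx1 is on the list of the study, which was made on these samples, and is not independent evidence of a direction. The study also reports that its qPCR did not clearly bear out the lower Runx1 expression in FL1. Runx1 is not, however, among the transcripts whose qPCR and array values it names as unrelated over the pools. Cebpb, a transcription factor gene needed for ovulation and luteinization, fell from 1111 ± 159 to 696 ± 93.4 (log2 fold change -0.67, SE 0.104, adjusted p = 0.000672, limma), and by the methods' t-test on linear signals its adjusted p was 0.011. The other Cebpb probe set was also at -0.67 but did not pass (adjusted p = 0.0367, limma).

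Markers of ovarian cell types were present in both lines and in part differed between them. Over all 12393 genes 2.08% rose and 1.65% fell, and a list with 1 call is too short to set against these shares. Summed signals weigh the brightest genes most. Of 11 luteal markers 5 rose in FL1, among them Ptgfr and Hsd17b7 (log2 fold changes 1.82 and 1.78), with a summed signal of 72564 to 85654 per pool in FL1 and of 37451 to 57535 in DUKsi. Of 12 granulosa and cumulus markers 3 fell, among them Cdh2 and Ccnd2 (-1.46 and -0.74), and the sums were 45020 to 51138 and 53569 to 61537. Ptgfr, Cdh2 and Ccnd2 are also among the differing genes that the study names. In its qPCR, Ptgfr differed significantly between pools but not between individual animals, and Ptgfr and Ccnd2 varied strongly from animal to animal. All these markers were measured on the samples of the study and are not independent evidence. In the theca list 1 of 5 fell (Aldh1a1, -0.52) and in the oocyte list 1 of 9 (Zp3, -0.49). Of the macrophage markers 0 of 12 passed (3 at an unadjusted p under 0.05), with sums of 6477 to 7820 in FL1 and 5638 to 7846 in DUKsi, and of the lymphocyte and other leukocyte markers 0 of 11 (1 at an unadjusted p under 0.05). In the endothelial, stromal and surface epithelial lists, of 9, 13 and 9 genes, 1 gene each rose, Pecam1 (0.58), Pdgfra (0.37) and Upk3b (1.29). The other Pdgfra probe set was at 0.10 and did not pass (adjusted p = 0.765, limma), whereas the other Upk3b probe set passed at 2.15. Oviduct markers summed to 434 to 971 in FL1 and to 575 to 818 in 5 DUKsi pools, but to 8838 in DUKsi pool 4. The part of these markers in the values of the members was not tested, and with FL1 pool 3 and DUKsi pool 4 left out 0 member probe sets passed.

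No member passed, so the gene patterns most alike were sought for Vcan, the member with the highest signal. Among 10416 probe sets with 1 gene and a signal above the median, the highest correlations over the 12 pools after subtraction of the line means were those of Zfand5 (0.91), the ubiquitin ligase gene Siah1a (0.91) and the fumarate hydratase gene Fh1 (0.89). Their own log2 fold changes of 0.18, 0.19 and 0.12 did not pass (adjusted p = 0.1002, 0.386 and 0.327).

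The 24 arrays were of like brightness, with medians of 212 to 244.5 and signals of 0.1 to 26218, and no array repeated the values of another. Pools correlated with the other pools of their line at a mean of 0.959 to 0.974, except FL1 pool 3 at 0.947. Leaving out this pool, or any other single pool, gave 0 member probe sets with an adjusted p under 0.01.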

How the data were processed

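The authors hybridized ovary RNA of 6 FL1 and 6 DUKsi pools to MOE 430A arrays, 2 per pool. The deposited intensity values are linear MAS5 signals, scaled by the authors to a common target per array. The array scale was checked (trimmed mean 500.1). The authors' present calls and pairwise statements were not used here. The precision is limited by the number of arrays and pools.

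The mean of both signals of a pool was taken to log2, and the lines were compared by limma 3.58.1 under R 4.3.3 with empirical Bayes moderation and a mean-variance trend. The 64 control probe sets were left out, and p-values were adjusted after Benjamini-Hochberg over 22626 probe sets. "Rose" and "fell" mean an adjusted p under 0.01. The methods' t-test was run on the same pool values. Of the probe sets, 20380 were annotated to 1 gene, 691 to several and 1555 to none. For lists, 1 probe set per gene was used, that with the highest mean signal. Exact permutation tests enumerated the 924 splits of the pools, and correlations were tested with 100000 resamples (Python 3.11.15, NumPy 2.4.6, SciPy 1.17.1).

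The members and the lists were chosen with earlier results of these data known. All member probe sets are named. From a pathway list, up to 4 genes that passed are named, or the 2 with the highest signal where none passed, and from a marker list up to 2 that passed. Edn2, Epgn and the Adamts genes are named beside this rule. The 3 probe sets most like the brightest member are also named. The scripts were tested on simulated data. As alternatives the comparison was repeated with single arrays, log2 before averaging, the arrays unaveraged and the pool as random block, quantile or median scaling, a constant added to the signals, no dim probe sets, the methods' t-test, limma without trend or robust, blocks by pool number, a threshold of 0.05, averages over the probe sets of a gene, and each pool left out. Chosen after seeing the data were the actin covariate, leaving out both FL1 pool 3 and DUKsi pool 4, and the comparisons between probe sets and between arrays.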

Additional observations from a re-analysis of the deposited data

Results flagged for a closer look

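Of 56 groups of 6 pools that were looked at, 3 held a pool far from the other 5 of its line by Dixon's ratio, which chance gives in about 1 in 20 groups. In FL1 pool 3 the signal of Btc 1421161_at was 60.3, whereas the other FL1 pools measured 27.8 to 33.8. The 3′ to 5′ ratio of beta-actin was 2.45 in the same pool and 1.32 to 1.74 in the others. In DUKsi pool 4 the signal of Tgfa 1421943_at was 508, and the other DUKsi pools measured 394 to 425.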

How the results depend on the processing

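In 27 settings 451 values of the member probe sets were recomputed, and 0 had an adjusted p under 0.01. The lowest adjusted p was 0.0489, for Egfr 1424932_at after scaling to the same median. With dim probe sets left out, 8 of the 17 had no value. The direction held for 7 probe sets in the settings that gave them a value and turned in at least 1 setting for the other 10. With the first arrays Tnfaip6 was at 0.49 and Ereg at 0.025. With the second arrays Has2 1449169_at was at -0.049, Btc 1421161_at at -0.56 and Egfr 1454313_at at 0.30. The last was also positive with mean log2 values and with the random block (both 0.017). Quantile normalization gave 0.059 for Ereg, 0.018 for Egfr 1432647_at and 0.11 for Egfr 1454313_at, and the same median per array gave 0.032, 0.012 and 0.067, with 0.044 for Vcan 1421694_a_at and 0.034 for Egfr 1460420_a_at. Without FL1 pool 3 and DUKsi pool 4 the values were 0.043 for Vcan 1421694_a_at, 0.22 for Cd44 1452483_a_at, -0.20 for Btc 1421161_at and 0.00027 for Egfr 1454313_at. With the actin ratio as a covariate they were 0.26 for Vcan 1421694_a_at, 0.023 for Vcan 1427257_at, 0.44 for Cd44 1452483_a_at, -0.36 for Btc 1421161_at and -0.011 for Tgfa. With each pool left out in turn, Btc 1421161_at ran from -0.14 to 0.087, Egfr 1454313_at from -0.095 to 0.076, Egfr 1460420_a_at from -0.19 to 0.037, Ereg from -0.12 to 0.087 and Vcan 1421694_a_at from -0.11 to 0.071.

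Over all probe sets, 764 past an adjusted p under 0.01 became 468 with the second arrays, 1278 with all 24 arrays, 507 by the methods' t-test on linear signals, 1241 with the actin covariate and 1564 at 0.05, and 573 to 943 with a pool left out. The 524 called also by fold became 335 by the t-test. The 5 pathway genes became 2 with the second arrays, 2 by the t-test on linear signals, 10 with all 24 arrays and 3 to 5 with a pool left out (3 without FL1 pool 4 or FL1 pool 6). Dcn passed with all arrays (adjusted p = 0.00287) and after quantile normalization (0.00886). The median of the hyaluronan list was also 0.13 after quantile normalization and 0.11 with the same median per array. The 5 correlated pairs became 3 after quantile normalization and 2 to 7 with a pool left out. The difference in the actin ratio was 0.241 to 0.468 with a pool left out, and that in the Gapdh ratio 0.0928 to 0.329. The cause of these changes was not tested. With the pool number as a replicate block the counts were 564 past the test, 461 called, 0 members and 3 pathway genes, without Timp1 (adjusted p = 0.0233) and Ptger2 (0.0219), and the block changed no other call among the members and the named pathway genes. The marker genes were not followed through the alternatives. Same-numbered pools of the lines correlated at -0.26 to 0.17, 0 pools correlated best with their own number, and the numbers were not taken as pairs. Signals near the background limit Tnfaip6, Has2 1449169_at, Cd44 1452483_a_at and Btc 1421161_at. The interval of Btc 1421161_at was 0.704 to 1.46, and those of the others reached 1.5-fold.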
